A study of Mus musculus with 18 samples.

Results

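Cerebella of homozygous CtmKO/CtmKO mice were compared with cerebella of wild-type littermates from the MPI 118Q and MPI 11Q knock-in lines, that is, with wild types that came from other lines than the knockout. The 3 arrays titled as Sca6 CtmKO/CtmKO formed the first side, and the 3 wild-type arrays of the 118Q line together with the 3 of the 11Q line formed the other, so 9 of the 18 arrays of the series took part. The remaining 9 were the Ctm line's own wild-type littermates (3), whose values are given beside the comparison, and the homozygous 118Q (3) and 11Q (3) knock-in mice, which entered only the estimate of the spread. All mice were C57BL/6, and the design text states an age of 6 weeks for the CtmKO and 118Q mice. No age was recorded for the wild types of any line or for the 11Q knock-in mice. Whether the knockout and the 6 wild types were of the same age is therefore not known here. Each array was hybridised with RNA of the cerebellum of 1 mouse. The labels do not expand the abbreviations Ctm and MPI and do not say where in the gene the alteration lies. Genotype, line and batch cannot be told apart in this comparison, because every knockout mouse came from the Ctm line and no control mouse did. The labels do not state whether the mice of a group shared a litter, so the p-values below measure the spread between these samples.

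Sca6 is another name of Cacna1a, which encodes the pore-forming subunit of Cav2.1, the P/Q-type voltage-gated calcium channel. Cav2.1 carries much of the calcium current of Purkinje cells, the output neurons of the cerebellar cortex, and triggers transmitter release at many synapses, including the parallel fibres of granule cells. An expanded CAG repeat in this gene causes spinocerebellar ataxia type 6 in people, and mice with altered Cav2.1 commonly show ataxia.

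Expression was measured on Affymetrix mouse arrays and is given as log2 values, so a difference of 1.00 is a 2-fold difference in the estimated RNA level. For genes with several probe sets, the brightest on average across the series was used, which left 18193 genes. Array medians of the 9 arrays lay between 2.48 and 2.55, and pairwise correlations lay between 0.982 and 0.995. The label of cerebellum fitted its markers: Pcp2 and Calb1 of Purkinje cells averaged 10.74 and 10.80 in the knockout, and Gabra6 and Cbln1 of granule cells averaged 10.48 and 10.11. The difference between 3′ and 5′ control probe sets of Gapdh and beta-actin, a sign of RNA degradation, averaged 0.618 in the knockout and 0.595 in the 6 wild types (exact permutation test, two-sided, p = 0.69). In whole tissue, fewer cells of a type and less RNA per cell cannot be told apart.

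In the knockout, 573 genes were higher and 1196 were lower than in the 6 wild types (limma, Benjamini-Hochberg adjusted p below 0.05; such genes are called below). These were 9.72% of the genes tested, 3.15% called higher and 6.57% called lower. Most calls were small: the median change was 0.45 among the genes called higher and -0.43 among those called lower, and 140 rises and 207 falls reached 1.5-fold. All 3 knockout arrays lay above, or all below, the 6 wild-type arrays for 3172 genes (17.4%), and 1526 of the called genes were among them. With each gene averaged over all arrays of the series, genes called lower had a median level of 5.21. The median was 3.39 for genes called higher and 3.86 for all genes. By contrast, the wild types of the 11Q line against those of the 118Q line gave 0 calls in the same limma fit, with 753 genes (4.14%) at an unadjusted p below 0.05, where the knockout comparison had 5074 (27.9%). Under the alternative settings that count was at most 2. The counts rested on few arrays: without knockout array 3 they were 86 higher and 156 lower, without array 2 174 and 380, without array 1 230 and 603, without the third 118Q wild type 314 and 705, and without the third 11Q wild type 331 and 772. The summed level of meningeal genes also separated the groups (below), and with it as a covariate, an alternative chosen after seeing the data, 1 rise (Kcnma1) and 3 falls (Hsf2, Pi4kb and Rpl27a) were called. The meningeal level did not overlap between the knockout and the 6 wild types, so this fit cannot separate that level from the group. Over the 118 named called genes, the median ratio of the covariate fit's change to that without the covariate was 0.865, and no sign turned. Of these genes, 93 kept at least 0.5 of the change, as Cacnb4 (0.74), Pam (-1.05) and Zic2 (0.68) did. The other 25 kept less, among them Tubb4a (0.27), Slc17a7 (0.30), Lrrc4b (0.38) and Ogn (-0.35). Ogn, Lum, Fn1 and Col1a2 are themselves members of the meningeal list, so their smaller changes were in part built into the fit. The choice of probe set also mattered: of the 118, 81 had several probe sets, and averaging these ended the call or turned the sign of 44, most of which are given with their averaged values below.

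**Figure D1:**
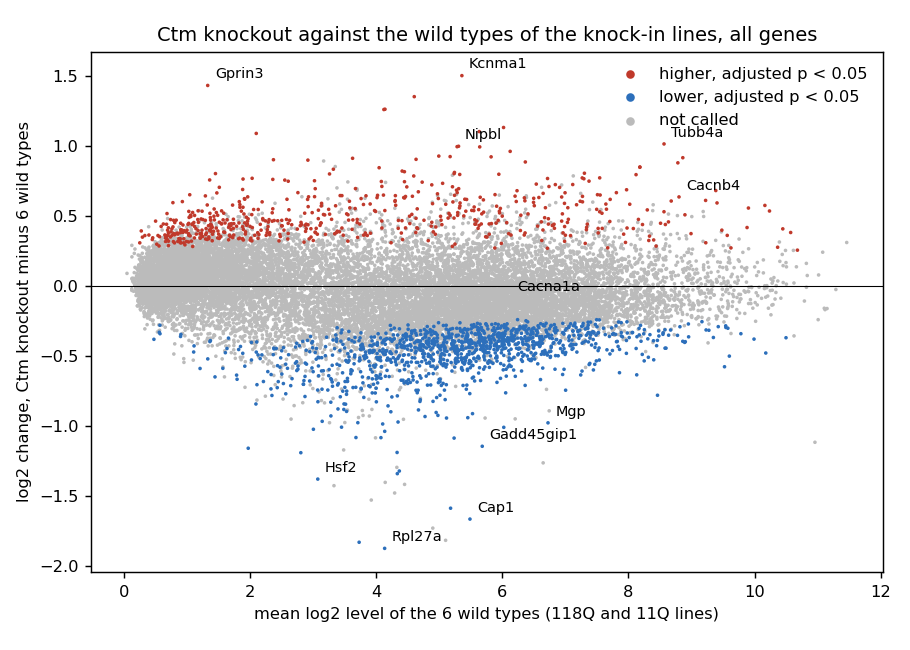
Each point is a gene, with its mean log2 level in the 6 wild types of the 118Q and 11Q lines on the x axis and the knockout minus wild-type log2 difference on the y axis; red and blue points are the 573 higher and 1196 lower genes at an adjusted p below 0.05. Called falls gather at middle levels, while many called rises lie among dim genes.

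Among the genes with the largest rises, Kcnma1, the pore of the BK calcium-activated potassium channel, led. Its 3 knockout arrays measured 6.90, 6.87 and 6.82, and the 6 wild types ran from 5.07 through a median of 5.38 to 5.49. The knockout arrays lay close together and well above every wild type, a 2.84-fold difference (1.504 on the log2 scale, SE 0.16; limma adjusted p = 0.000136). A second Kcnma1 probe set was also higher (0.82), but the other 3 for this gene changed by -0.14, -0.19 and -0.66 without a call, so the probe sets disagree and their average was 0.27 with no call. Gprin3, a G-protein-linked regulator of neurite outgrowth, measured 2.81, 2.87 and 2.59 in the knockout against 0.88 to 1.77 (median 1.37) in the wild types, a rise of 1.43 (SE 0.23, limma adjusted p = 0.0033) at a low level. Slc17a7, which encodes the vesicular glutamate transporter VGLUT1 of granule cells, measured 6.71, 6.68 and 6.52 against 5.01 to 6.30 and rose by 0.99 (limma adjusted p = 0.0143). Grik5, a kainate receptor subunit, rose by 0.92, the cyclic nucleotide phosphodiesterase Pde10a by 1.10, and the synaptic adhesion protein gene Lrrc4b by 1.26. The tubulin gene Tubb4a rose by 1.02 and the microtubule plus-end protein gene Mapre3 by 1.00. For these 6 genes no array of the knockout overlapped the wild types, but the wild types themselves were spread widely, as in Tubb4a (7.53 to 9.14). In all of them but Pde10a, the third array of each line was its lowest wild type. Tubb4a measured 7.73 on that of the 118Q line and 7.53 on that of the 11Q line, against 8.90 to 9.14 on the rest. Nipbl, the loader of the cohesin complex onto DNA, measured 6.27, 6.40 and 6.16 against 4.87 to 5.62 and rose by 1.00 (SE 0.17, limma adjusted p = 0.00399). Of its 4 other probe sets 1 was called (1.23) and 3 were not (0.31, -0.30 and -0.31), and the average of 0.39 was not called. The remaining large rises were the transcription repressor Zbtb7a (1.35), Tmem267 (1.26), the ubiquitin ligase adaptor Zer1 (1.09), the Ras pathway inhibitor Spred1 (0.96), Sowaha (0.93) and the pyruvate dehydrogenase kinase Pdk2 (0.92). With probe sets averaged, Gprin3 (0.88), Pde10a (0.62), Zbtb7a (0.47) and Spred1 (0.43) were smaller and still called.

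The largest fall was that of Rpl27a, which encodes a protein of the large cytosolic ribosomal subunit. It measured 2.38, 2.19 and 2.20 in the knockout and 3.74 to 4.72 in the wild types, with a median of 4.12. That is a gap with no overlap and a 3.67-fold difference (-1.88, SE 0.17, limma adjusted p = 1.71e-05). Its other probe set was near the bottom of the scale in both groups and differed by 0.046. Cap1, a regulator of actin filament turnover, measured 3.79, 3.92 and 3.75 against 5.03 to 6.27 and fell by 1.67 (limma adjusted p = 0.000557), and its second probe set fell by 1.54. Hsf2, a heat shock transcription factor, measured 1.68, 1.63 and 1.76 against 2.91 to 3.38 and had the smallest p of the named genes (-1.38, SE 0.09, limma adjusted p = 3.94e-07), while its other, dimmer probe set differed by 0.068. Pi4kb, a phosphatidylinositol 4-kinase of the Golgi, measured 4.43, 3.96 and 4.05 against a narrow wild-type range of 5.14 to 5.29 and fell by 1.09 (limma adjusted p = 1.71e-05). Gadd45gip1, a nuclear-encoded protein of mitochondrial translation, measured 4.61, 4.67 and 4.33 against 5.21 to 5.97 and fell by 1.15 (SE 0.14, limma adjusted p = 0.000376). Its second, dimmer probe set was higher by 0.34 without a call. Some of the remaining large falls were secreted or matrix proteins, among them Ogn (osteoglycin, -1.32), Ccn3 (-1.34) and the lysozyme Lyz1 (-1.19), whose probes may share signal with its near-identical neighbour Lyz2 (-0.76, also called). Others were enzymes and carriers: Pam, which amidates neuropeptides (-1.08), Agbl5, a tubulin deglutamylase (-1.04), D2hgdh (-1.01), Slc26a7 (-1.16) and Slc47a1 (-1.02). Fmn1, a formin that nucleates actin (-1.19), and the RNA-binding protein gene Rbm45 (-1.08) completed the 15. Agbl5 was not called with its 3 probe sets averaged (-0.18), since the 2 others were higher (0.32 and 0.18). Averaged values were smaller but still called for Rpl27a (-0.92), Pi4kb (-0.72), Hsf2 (-0.66), Lyz1 (-0.63), Slc26a7 (-0.56), Fmn1 (-0.51), D2hgdh (-0.43) and Gadd45gip1 (-0.41).

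The Ctm line's own wild types lay near the knockout for most of these genes. The comparison of Ctm wild types with the 6 wild types called 2939 genes (16.2%; 1331 higher and 1608 lower), and the knockout against its own littermates called 169 (0.929%; 152 higher and 17 lower). These comparisons share arrays with the main comparison, so the values are given side by side only. Over the 573 genes called higher, the median difference was 0.45 from the 6 wild types and 0.037 from the own littermates, and the Ctm wild types differed from the 6 wild types by a median of 0.43. Over the 1196 genes called lower, the same medians were -0.43, -0.15 and -0.30. Kcnma1 measured 6.68, 6.82 and 6.61 in the Ctm wild types, which placed them beside the knockout arrays (0.16 lower than these, SE 0.19) and above all 6 other wild types. Rpl27a measured 1.89, 2.27 and 2.43, Hsf2 1.59, 1.82 and 1.66, and Pi4kb 4.24, 4.33 and 4.48 in the Ctm wild types, in each case below every wild type of the other lines. The knockout differed from its littermates by 0.06 in Rpl27a and by -0.20 in Pi4kb (limma adjusted p = 0.944 and 0.513). Gadd45gip1 was different: the Ctm wild types measured 5.94, 5.75 and 6.08, and the knockout was lower than they were by 1.39 on the log2 scale (SE 0.16, limma adjusted p = 0.00128). Its second, dimmer probe set went the other way, averaging 2.69 in the knockout and 2.00 in the Ctm wild types, so the probe sets disagree. Nipbl was intermediate, with Ctm wild types at 6.05, 5.57 and 5.28 and a difference of 0.64 from them that was not called (limma adjusted p = 0.134).

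**Figure D2:**
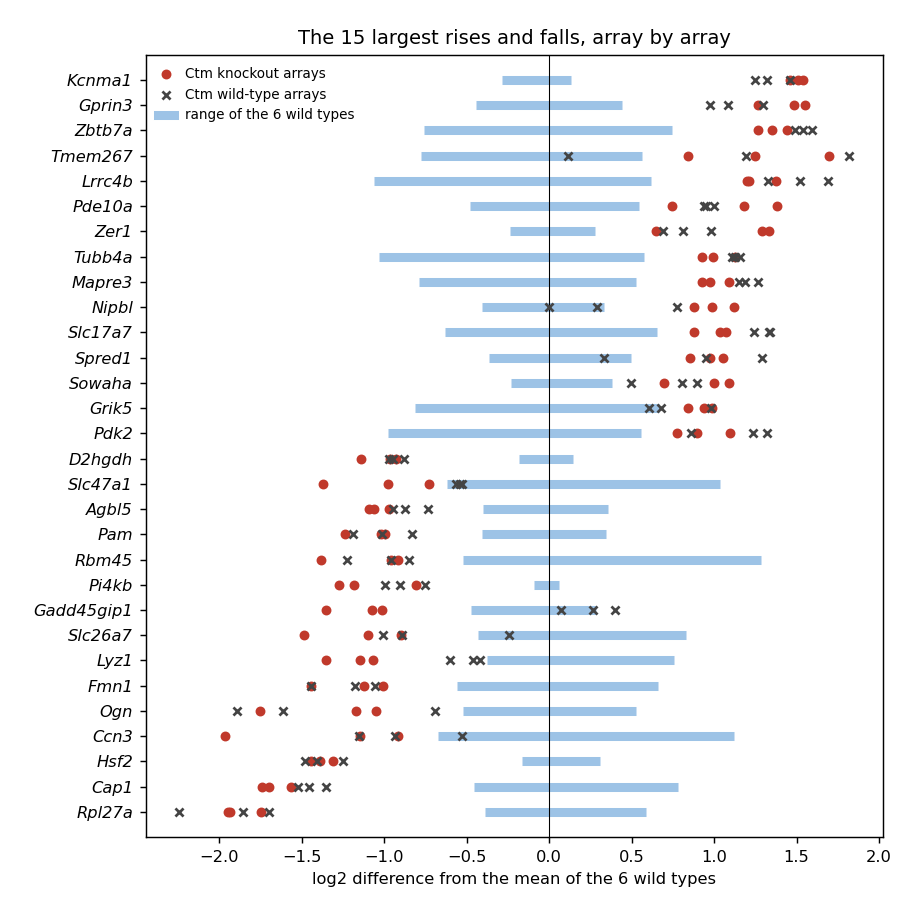
For the 15 largest rises and 15 largest falls, each array is shown as its log2 difference from the mean of the 6 wild types (blue bars: range of these 6; red points: 3 knockout arrays; crosses: 3 Ctm wild-type arrays). The crosses lie among or next to the red points for most genes, while for Gadd45gip1 they lie within or above the bar.

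**Figure D3:**
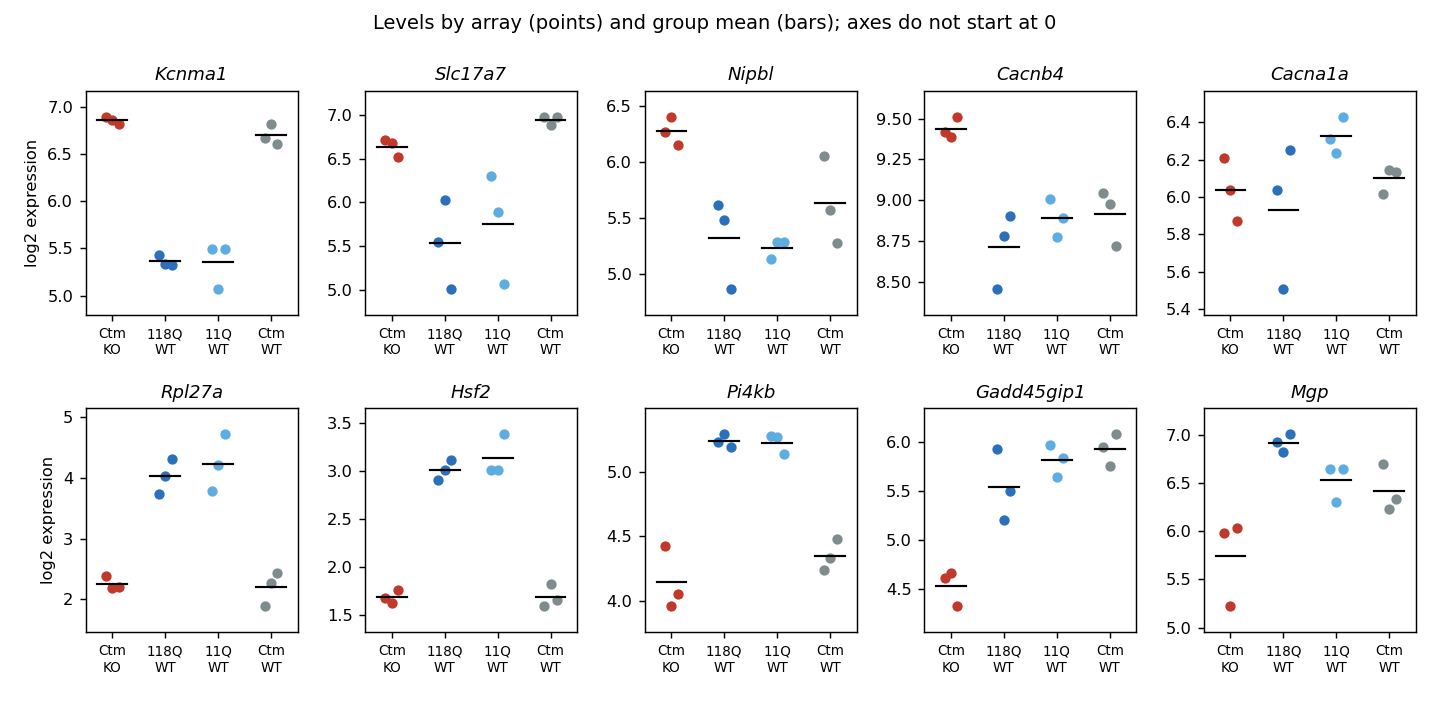
Log2 expression on each array (points) with group means (bars) for 10 genes in the knockout, the 118Q and 11Q wild types and the Ctm wild types. Kcnma1, Slc17a7, Rpl27a, Hsf2 and Pi4kb divide the 2 Ctm groups from the other lines, Cacnb4 and Gadd45gip1 divide the knockout from all 9 wild types, and Cacna1a overlaps throughout.

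Cacna1a itself did not pass the test. It measured 6.21, 6.04 and 5.87 in the knockout and 5.51 to 6.43 (median 6.24) in the 6 wild types, overlapping ranges with a difference of -0.09 (SE 0.13, limma adjusted p = 0.681). None of its 4 probe sets was called, with differences from -0.31 to 0.088. Where these probe sets lie relative to the alteration is not known here, so their signal does not check the genotype. Cacnb4, the auxiliary β4 subunit that pairs with Cav2.1 in the cerebellum, measured 9.42, 9.39 and 9.51 in the knockout against 8.46 to 9.01 (median 8.84). It rose 1.56-fold (0.64, SE 0.11, limma adjusted p = 0.00407), and the knockout arrays also lay above the Ctm wild types (9.04, 8.98 and 8.72; difference 0.53, SE 0.12, limma adjusted p = 0.052). Of its other probe sets, 1 was called (0.82) and 1 was not (0.23). Of 22 voltage-gated calcium channel genes, the retinal channel gene Cacna1f (0.36) was the only other member called. Calcium signalling genes gave 1 rise and 1 fall among 24: the store-operated calcium entry sensor Stim1 rose (0.43) and the plasma membrane calcium pump Atp2b3 fell (-0.37). Among 22 potassium and sodium channel genes, Kcnma1 and the sodium channel gene Scn2a (0.46) rose, and the Kv3-type channel gene Kcnc4 fell (-0.33). Averaged over probe sets, these 3 were at 0.27, 0.23 and 0.00071, and their calls were lost. A list of 12 genes reported as altered in other Cav2.1 mutant mice held 2 called members, Kcnma1 and Cacnb4 (16.7%, against 9.72% of all genes), and a median of 0.04.

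The 40 measured genes nearest to Cacna1a on chromosome 8, 20 on either side, held 3 called higher and 5 called lower, or 20% against 9.72% of all genes, with a median change of 0.017. Their order was taken from the RefSeq genes of GRCm38.p6. By chromosome, called genes made up 8% to 12.4%, and 9.87% on chromosome 8. Beside Gadd45gip1, Mri1, an enzyme of the methionine salvage pathway, measured 3.51, 3.58 and 3.56 against 4.04 to 4.70 and fell by 0.79 (SE 0.15, limma adjusted p = 0.00702). Its Ctm wild types measured 3.96, 4.33 and 4.72, so the difference from the own littermates was also -0.79 (limma adjusted p = 0.0383). Trmt1, a tRNA methyltransferase, fell by 0.49 from the 6 wild types and by 0.67 from its littermates (limma adjusted p = 0.0221 and 0.0312). These 3 were the neighbours called in both comparisons. Syce2, a synaptonemal complex protein gene (-0.63), and the dynein adaptor Hook2 (-0.68) fell against the 6 wild types, and their differences from the littermates, -0.58 and -0.49, were not called. Nacc1, a transcriptional corepressor, rose by 0.80 but differed from its littermates by -0.03, and Samd1 (0.50) and Best2 (0.35) were likewise close to them (-0.18 and -0.01). With probe sets averaged Trmt1 was at -0.11 and not called, and Mri1 (-0.40) and Nacc1 (0.51) were called.

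**Figure D4:**
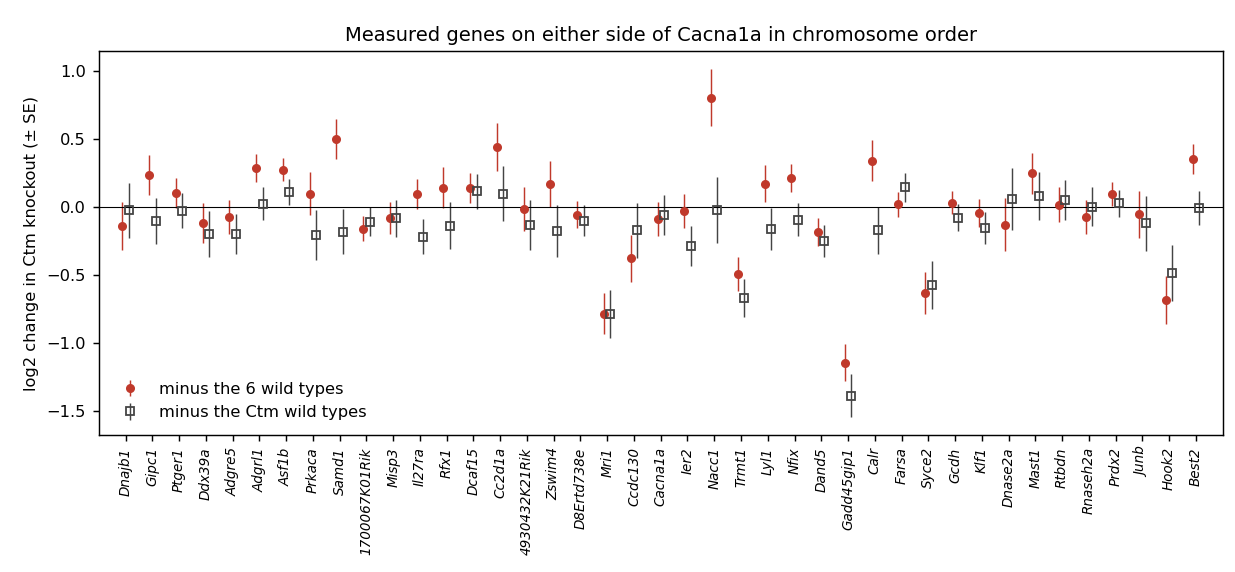
The log2 change in the knockout, with its SE, for the 20 measured genes on either side of Cacna1a in chromosome order, against the 6 wild types (red) and against the Ctm wild types (open squares). Gadd45gip1, Mri1 and Trmt1 lie clearly below 0 in both, and Nacc1 lies at 0.80 against the 6 wild types and at -0.03 against the Ctm wild types.

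Genes for proteins of the mitochondrial ribosome, which translates the few messages of the mitochondrial genome, were lower in a sizeable share. In limma 20 of 73 (27.4%) were called lower and 0 higher, against 6.57% and 3.15% of all genes. At an unadjusted p below 0.05, 44 (60.3%) were lower and 0 higher, where 17.6% of all genes were lower. The median change was -0.23, where all genes had -0.03, and 2 of the 73 differences were above 0, against 8253 of all 18193 genes. A fit of the brighter 50% of genes alone called 1414 of 9096 lower and 368 higher, with a median change of -0.108. That is a larger share lower than among all genes, so all genes are a low background for bright lists. The mean level of the list was 5.83 to 5.89 on the knockout arrays, 6.07 to 6.19 in the 118Q and 5.98 to 6.19 in the 11Q wild types, with no overlap. Mrpl35 measured 5.51, 5.75 and 5.51 against 5.85 to 6.27 and fell by 0.51 (SE 0.10, limma adjusted p = 0.0064), and Mrpl39 (-0.56), Mrpl48 (-0.49) and Mrpl46 (-0.45) fell likewise. The list's median difference was -0.22 from the own littermates and -0.017 between the Ctm wild types and the 6 wild types, although none of these 4 genes was called against the littermates (Mrpl46: -0.37, limma adjusted p = 0.0784). After renewed quantile normalisation 12 members were called lower, and with probe sets averaged 11, where Mrpl39 (-0.34) was not called.

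Other housekeeping lists had shares called lower between 9.3% and 16.7%, and shares called higher between 0% and 6.25%. All genes had 6.57% and 3.15%. The called shares of cytosolic ribosomal (9.3% lower, 4.65% higher) and oxidative phosphorylation genes (9.38% and 6.25%) were near these. At an unadjusted p below 0.05, 27.9% of cytosolic ribosomal, 31.2% of oxidative phosphorylation and 30.8% of proteasome genes were lower. So were 47.6% of lysosomal and 27.8% of cholesterol synthesis genes, against 17.6% of all genes. In all but the cholesterol list, the mean level was lower on every knockout array than on any of the 6 wild types. Among 43 cytosolic ribosomal protein genes, 4 fell, namely Rpl27a, Rpl14 (-0.73), Rpsa (-0.40) and Rpl10a (-0.27), and 2 rose, Rpl37 (0.46) and Rps10 (0.27), with a median of -0.11. The proteasome, which degrades ubiquitin-tagged proteins, had 5 falls and 1 rise among 39 subunit genes, with Psmb3 at -0.60, Psma6 at -0.45, Psmd13 at -0.38 and Psmd4 at -0.33. Of 32 oxidative phosphorylation genes, 3 fell (Cox5b -0.37, Atp5c1 -0.30, Atp5o -0.26) and 2 rose (Sdhc 0.42, Atp5b 0.28). Lysosomal genes gave 3 falls among 21, the membrane protein gene Lamp2 (-0.53), the cholesterol carrier Npc2 (-0.44) and the ion channel gene Mcoln1 (-0.24), and a median of -0.24. In cholesterol synthesis, Hsd17b7 (-0.74), Fdft1 (-0.65) and Fdps (-0.50) fell and the early enzyme gene Hmgcs1 rose (0.48), among 18 genes. Averaging probe sets ended all 4 of these calls (Hsd17b7 -0.11, Fdft1 -0.044, Fdps -0.20, Hmgcs1 0.18) and moved the list median from -0.19 to -0.04. Calls were likewise lost by Rpsa (-0.25), Rps10 (-0.053), Psmd13 (-0.20), Psmd4 (-0.15), Atp5c1 (-0.17), Atp5o (0.23), Sdhc (0.31), Lamp2 (-0.35), Npc2 (-0.21) and Mcoln1 (-0.13).

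Of the neuronal lists, granule cell markers and synaptic vesicle genes each had 28.6% of members called, against 9.72% of all genes, and the Purkinje cell (13.6%), glutamate receptor (10%) and interneuron (6.25%) lists were near that share. The median difference of granule cell markers was 0.08 from the 6 wild types and 0.02 from the own littermates. For synaptic vesicle genes these medians were 0.06 and -0.06. Of 22 Purkinje cell markers, Car8, which binds the IP3 receptor, rose (10.78, 10.67 and 10.87 against 10.02 to 10.37; 0.54, limma adjusted p = 0.0117), as did Arhgef33 (0.44), while the transcription factor Foxp2 fell (-0.68). Car8 was as high in the Ctm wild types, at 10.59, 10.70 and 10.72. Of 21 granule cell markers, 5 rose and 1 fell: with Slc17a7, the transcription factors Zic2 (0.77), Barhl1 (0.42) and Zic1 (0.38) and the carbonic anhydrase Car4 (0.44) rose, and Nfia fell (-0.35). Gabra6, the granule cell GABA-A receptor subunit, differed by 0.02 (SE 0.08). Against the own littermates, Slc17a7 (-0.31), Zic2 (-0.07), Zic1 (0.24) and Nfia (0.21) were not called. Synaptic vesicle and release genes held 5 rises and 3 falls among 28. The vesicle proteins Syp (0.80), Syn1 (0.71) and Sncb (0.64), the priming factor Unc13a (0.56) and Rph3a (0.56) rose, whereas the calcium sensor Syt1 (-0.36), the active zone protein Erc2 (-0.56) and Cplx1 (-0.29) fell. Glutamate receptor genes had 2 rises among 20, Grik5 and the AMPA receptor subunit Gria1 (7.95, 7.87 and 7.79 against 7.07 to 7.61; 0.60, limma adjusted p = 0.00505). Of 13 GABA receptor and synapse genes, Gabrb1 fell (-0.43) and Nlgn2 rose (0.40). In interneuron markers, Lypd6 was the single call among 16 (-0.68). Averaging of probe sets turned Nfia to 0.54 and ended the calls of Car8 (0.37), Arhgef33 (0.32), Foxp2 (-0.12), Barhl1 (0.25), Car4 (0.42), Syp (0.37), Cplx1 (-0.014), Gabrb1 (-0.064) and Lypd6 (-0.27).

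Among glial genes, 10% of astrocyte and Bergmann glia markers and 6.25% of myelin genes were called, near the 9.72% of all genes. Of oligodendrocyte precursor markers 40% were called, 20% higher and 20% lower. Slc1a3, the glutamate transporter GLAST of Bergmann glia, measured 9.31, 9.23 and 9.32 against 8.52 to 8.90 and rose by 0.61 (SE 0.11, limma adjusted p = 0.00609), and the astrocyte filament gene Gfap rose by 0.75; these were the 2 calls among 20 astrocyte and Bergmann glia markers. The Ctm wild types had the same or higher levels, with differences of -0.04 and -0.26 between knockout and littermates. Of 16 myelin genes, Cldn11 rose (0.77), and 15 of 16 differences were above 0 with a median of 0.18, where 8253 of all 18193 genes were above 0. The median of the myelin list was -0.09 from the own littermates and 0.24 between the Ctm wild types and the 6 wild types. Precursor markers split, with Olig2 (0.75) and C1ql1 (0.39) higher and Vcan (-0.81) and Pdgfra (-0.67) lower, among 10. Slc1a3 (0.25), Gfap (0.41) and Vcan (-0.061) were not called with probe sets averaged. None of 23 microglia markers and none of 20 interferon response genes was called by limma; the smallest p among them belonged to Csf1r (-0.50, limma adjusted p = 0.0549) and Gbp2 (-0.38, limma adjusted p = 0.0708). At an unadjusted p below 0.05, 7 microglia genes (2 higher, 5 lower) and 5 interferon genes (1 higher, 4 lower) differed, where 27.9% of all genes did. Among 23 Toll-like receptor and cytokine genes, Tnf was called higher at a low level (0.52) and the NF-κB inhibitor gene Nfkbia lower (-0.62; averaged over its probe sets -0.45, not called), or 8.7% of the list.

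Genes of the meninges and fibroblasts fell in 6 of 13 cases and rose in 0 (limma; 9 lower and 0 higher at an unadjusted p below 0.05), with a median of -0.40. That is 46.2% called lower and 69.2% lower at the unadjusted threshold, against 6.57% and 17.6% of all genes. Renewed quantile normalisation, centring of the arrays and averaging of probe sets each gave 4 falls and 0 rises; averaged, Fn1 (-0.26) and Slc22a6 (-0.23) were not called. Beside Ogn, the proteoglycan Lum (-0.61), fibronectin Fn1 (-0.54), the collagen chain Col1a2 (-0.50) and the transporters Slc22a6 (-0.40) and Slc6a13 (-0.38) were lower. The mean level of the list was 3.98, 3.83 and 4.07 on the knockout arrays and 4.26 to 4.68 on the 6 wild types, so that the arrays did not overlap. The difference was -0.50 (exact permutation test, two-sided, p = 0.0119, the smallest that 3 against 6 arrays allow; adjusted over 6 array measures, p = 0.0714). The Ctm wild types measured 4.47, 4.25 and 4.17, above the knockout arrays and overlapping the lower part of the range of the 6 wild types. The part of meningeal tissue in the other results was not tested beyond the covariate fit given above. Choroid plexus genes, from the secretory tissue of the ventricles, all had differences below 0 (15 of 15, median -0.98), but limma called 0 (0 also at an unadjusted p below 0.05) and the arrays of both groups overlapped widely: the list averaged 2.81, 4.18 and 5.53 in the knockout and 2.90 to 6.19 in the wild types (exact permutation p = 0.321). The defining marker Ttr ranged from 6.08 to 12.10 among the 3 knockout arrays and from 6.27 to 11.94 among the wild types. Endothelial and pericyte markers gave 1 fall among 19 (5.26%), the pericyte potassium channel gene Kcnj8 (-0.70). Their median was -0.24. At an unadjusted p below 0.05, 6 of them (31.6%) were lower and 1 was higher, where 17.6% of all genes were lower. Hindbrain genes from outside the cerebellum (16) and red blood cell genes (4) gave 0 calls in limma, also 0 at an unadjusted p below 0.05, and their mean levels overlapped (exact permutation p = 0.905 and 0.369).

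Stress and regulatory lists had between 5.26% and 16.7% of members called, around the 9.72% of all genes. The small chaperone Hspb8 measured 4.26, 4.36 and 4.42 against 4.80 to 5.22 and fell by 0.67 (SE 0.11, limma adjusted p = 0.00343), the single call among 18 heat shock genes, and it was lower than in its littermates too (-0.54, limma adjusted p = 0.0423). In the unfolded protein response the chaperone Hsp90b1 rose (0.67) and the sensor kinase Ern1 fell (-0.55), among 22 genes. Glucocorticoid response genes had a median of -0.32 with 2 falls among 17, Pdk4 (-0.79) and Nfkbia. In the immediate early genes Btg2 fell (-0.74) and Jund rose (0.52), among 23, and in the circadian clock Dbp (-0.75) and Clock (-0.44) fell and Hlf rose (0.63), among 18. Trp53inp1 (-0.42) was the call among 16 p53 and cell death genes, and Pcna (-0.33) that among 19 cell division genes. Of 22 genes of other inherited ataxias, Elovl5 (-0.54) and Aptx (-0.44) fell and Atn1 rose (0.64). With probe sets averaged Ern1 was at -0.0046, and Btg2 (-0.33), Jund (0.25), Dbp (-0.60), Clock (-0.19), Hlf (0.27), Trp53inp1 (-0.17), Elovl5 (-0.30) and Atn1 (0.64) were not called either.

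In the splicing factor (8.82%), Zfp (9.42%) and protocadherin (5.71%) lists, genes were called at or near the share of all genes (9.72%). The hnRNP and small nucleolar RNA host lists had 15.8% and 13.3% called. Of 34 splicing factor genes, Tra2a (0.89) and Srrm2 (0.58) rose and Rbfox3, the neuronal nuclear antigen NeuN, fell (-0.48). Of 19 hnRNP genes, Hnrnph2 (0.69), Hnrnpd (0.41) and Hnrnpul1 (0.36) rose. The 329 zinc finger genes with a Zfp symbol, many of them DNA-binding repressors, gave 23 falls and 8 rises (6.99% and 2.43%, against 6.57% and 3.15% of all genes), with a median of -0.10. Zfp566 measured 2.88, 2.87 and 2.84 against 3.28 to 3.79 (-0.68, limma adjusted p = 0.00399). Small nucleolar RNA host genes gave 2 falls among 15, Snhg16 (-0.42) and Snhg10 (-0.34), and protocadherin genes 1 fall, Pcdh19 (-0.61), and 1 rise, Pcdhb5 (0.28), among 35. After averaging of probe sets Rbfox3 (0.12) and Hnrnpd (-0.11) turned sign, Tra2a was at 0.39 and called, and Snhg10 (-0.28) and Pcdh19 (-0.29) were not called.

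**Figure D5:**
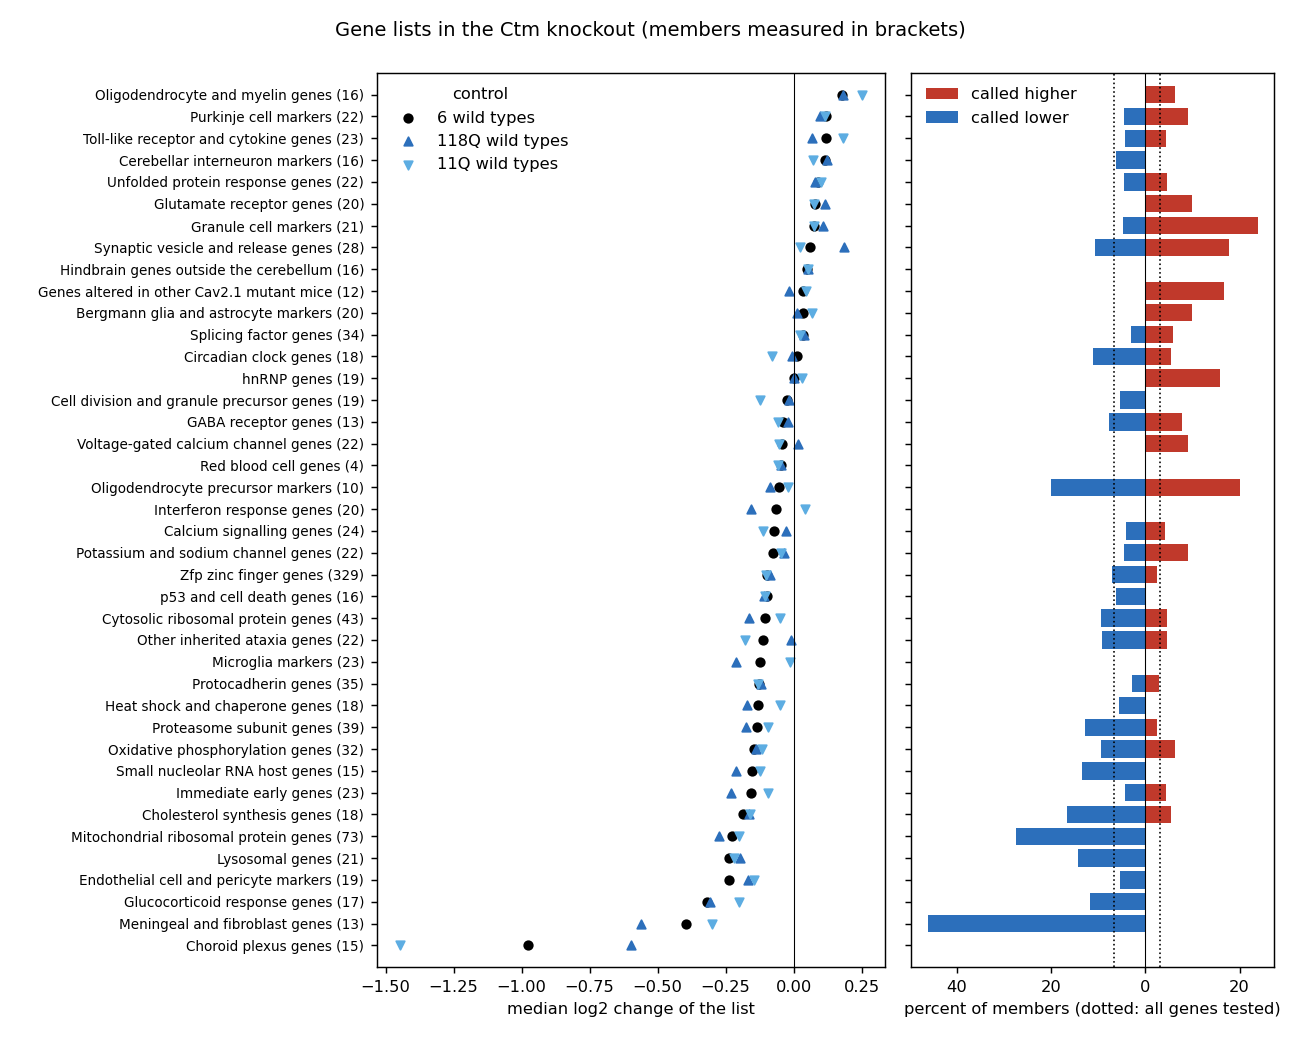
Left, the median log2 change of each of the 40 gene lists in the knockout against all 6 wild types (circles), the 118Q wild types (upward triangles) and the 11Q wild types (downward triangles); right, the percent of measured members called higher (red) or lower (blue), with the shares of all genes as dotted lines. Mitochondrial ribosomal and meningeal genes have the longest bars on the lower side, and the choroid plexus list has the lowest median and no call.

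The knockout arrays lay outside all 9 wild types of the 3 lines for 842 genes (4.63%), 124 above and 718 below. Of the genes called against the 6 wild types, 66 rises and 356 falls were among them. The genes named here were chosen after their values were seen, as those farthest from both sets of wild types. Above all 9 were Cacnb4, Nipbl, Tra2a, Scn2a, the ubiquitin ligase gene Ube3a (7.47, 7.40 and 7.37 against 6.73 to 7.34 in all 9; 0.42), and the nuclear matrix protein gene Matr3 (0.56). Slitrk4, a synaptic adhesion protein, measured 7.54, 7.46 and 7.40 against 6.59 to 7.11 in the 6 and 7.15, 6.31 and 6.39 in the Ctm wild types. It was higher by 0.52 and 0.85 (limma adjusted p = 0.0395 and 0.0267). Smim10l1 was higher by 0.41 than the 6 and by 0.59 than the littermates (limma adjusted p = 0.0261 and 0.0312). Below all 9, Rasd2, a small G protein known from striatal neurons, measured 3.80, 4.11 and 3.64 against 4.13 to 4.91 and, in the Ctm wild types, 4.74, 5.22 and 4.73. It fell by 0.69 against the 6 and by 1.05 against the littermates (limma adjusted p = 0.0338 and 0.0313). Also below all 9 were Mgp, matrix Gla protein (5.98, 5.22 and 6.03 against 6.30 to 7.01; -0.98, limma adjusted p = 0.00399), Tgfbi (-1.01), Fmod (-0.94) and Lgals1 (-0.91). Their differences from the littermates, from -0.63 to -0.68, were not called. With the meningeal covariate Mgp was at -0.56, Tgfbi at -0.43, Fmod at -0.60 and Lgals1 at -0.42, none of them called. The part of meningeal tissue in these 4 genes was not tested beyond that fit. Rnf150 (-0.83), Tmem176a (-0.75) and Tmem120a (-0.66) were also below all 9 and not called against the littermates. Rasd2 and Rnf150 lie on chromosome 8, as Cacna1a does, but outside its 20 measured neighbours on either side. Its neighbours Gadd45gip1 and Mri1 were below all 9 too. The part of chromosomal position in these falls was not tested. With probe sets averaged, Nipbl, Scn2a, Ube3a (0.084), Matr3 (0.17), Slitrk4 (0.077), Smim10l1 (0.30), Rasd2 (-0.36) and Tmem176a (-0.36) were not called.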

How the data were processed

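The deposited table holds log2 expression values for 45101 probe sets, which the authors summarised and normalised with RMA (no version stated), per the submitters' processing notes. Labelled cRNA was made from total RNA and hybridised to Affymetrix arrays, per the labels' protocols. Control probe sets (64) and those with several or no gene symbol (10092) were left out, and the probe set with the highest mean stood for each gene. Array values carry no read depth, and 3 arrays a group limit the precision. Scan dates are not given in the sources used here.

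Differences were tested with limma 3.58.1 in R 4.3.3 (lmFit and eBayes, 1 mean per group, all 18 arrays, 12 residual and 5.98 prior degrees of freedom), as knockout minus the mean of both wild-type group means, with Benjamini-Hochberg adjustment over 18193 genes at 0.05. Array measures used exact permutation tests. The code was tested on simulated data. Named genes were the 15 largest non-overlapping called changes each way, up to 4 called members of each of 40 lists by p (or 2 uncalled), up to 6 called neighbours of Cacna1a, and Cacna1a and Cacnb4; predicted loci and sex-linked marker genes were not named. Further called list members and the genes outside all 9 wild types were named after their values were seen. The comparison and lists were chosen with earlier results of these data known. Of 1265 list entries, 1192 were measured. Alternatives concerned probe sets, filter, variance model, scaling, covariates, control line, replicate block and each array left out.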

Additional observations from a re-analysis of the deposited data

Results flagged for a closer look

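Among the 6 wild types, 7 of 135 tested values had a single array far from the other 5 by Dixon's criterion, which chance meets in about 1 of 20 groups. The second 118Q wild type was low in the mean of the choroid plexus list (2.9, with the nearest array at 5.18) and in its members Calml4 (1.38) and F5 (0.473). The third 118Q wild type was high in Slc26a7 (2.8, nearest 1.99), a gene named above as lower in the knockout. The first 11Q wild type was low in Zfp275 (6.21) and Rpl14 (2.03, nearest 2.4), both called lower in the knockout, and the third 11Q wild type was high in the hindbrain list mean (1.72, nearest 1.24).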

How the results depend on the processing

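The main counts were 573 higher, 1196 lower and 0 between the wild-type lines. Leaving out 1 array at a time gave 86 to 640 higher, 156 to 1346 lower and 0 to 2 between the lines. Averaged probe sets gave 772 lower, and every probe set by itself gave 1526 and 1930. Without the dimmer 50% of genes, 368 were higher and 1414 lower among 9096, with a median change of -0.108. Array weights gave 960 and 1884, renewed quantile normalisation 717 lower, the 9 arrays alone 280 and 680, and line as a random block 1707 and 3054 (estimated correlation -0.178). The 118Q wild types alone as control gave 175 and 502, the 11Q wild types alone 236 and 486, and a fold of at least 1.5 as well 140 and 207. The meningeal covariate, added after seeing the data, gave 1 and 3. Between the wild-type lines, array weights called 2 genes, and 1 was called without dimmer genes, with trend and robust, after quantile normalisation or centring, with 9 or 15 arrays, and with the meningeal covariate. A replicate block gave 624 and 1226; same-numbered arrays correlated between -0.291 and 0.412 in their deviations, so the numbers were not taken as pairs. Of 118 named called genes, 103 kept the call after quantile normalisation, 73 with averaged probe sets, 37 without knockout array 3 and 4 with the meningeal covariate, where 93 kept at least 0.5 of their change. Signs reversed with averaged probe sets for Nfia (0.54), Kcnc4 (0.00071), Atp5o (0.23), Rbfox3 (0.12) and Hnrnpd (-0.11), for Cacna1a with array weights (0.021), the 118Q wild types alone (0.11) and the meningeal covariate (0.13), and with that covariate for Calml4 (1.52), F5 (0.57) and Alas2 (0.061). The cause of these shifts was not tested, apart from fewer arrays or genes where an alternative leaves them out.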
